A study of Caenorhabditis elegans with 16 samples.

Results

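The nuclear-encoded respiratory chain genes described here were the protein-coding genes whose names in the deposited tables begin with nuo-, nduf-, cox-, ucr-, sdha-, sdhb-, sdhd-, asg-, asb- or atp-, leaving out the mitochondrial gene atp-6, together with cyc-1, isp-1 and mev-1. The rule used names only and no measured value. It found 34 genes among the 46536 genes of the tables, of which 20112 are protein-coding. Of the 34, 10 belong to complex I, 5 to complex II, 7 to complex III, 4 to the assembly of complex IV and 8 to the ATP synthase.

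RNA was sequenced from germline tumors dissected from 1-day-old adults of Caenorhabditis elegans, strain Bristol, in 16 libraries. Animals of every group shared 1 genotype: they carried q497 in gld-2 and q485 in gld-1, together with glp-1(ar202), lag-1(oz536oz537) and the transgene ieSi64, which holds gld-1p::tir1::mRuby. The groups differed in the time on 1 mM auxin: 0 h (control), 2 h, 4 h or 48 h, with 4 libraries each, after synchronised larvae had grown for 48 h at 25 °C. GLD-1 and GLD-2 promote entry into meiosis, GLP-1 is the Notch receptor of the germline, and LAG-1 is the DNA-binding factor of the Notch pathway. TIR1 is a plant auxin receptor that marks degron-tagged proteins for breakdown, and here it was driven by the gld-1 promoter. What the lag-1 alleles alter is not written in the labels, and TIR1 acts on proteins, so no RNA level here checks the treatment. Because all groups carried the lag-1 alleles, auxin acting by itself and auxin acting through LAG-1 cannot be told apart. The longest exposure equals the whole stated growth time, so at 48 h a longer exposure and an earlier one cannot be told apart.

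The respiratory chain passes electrons from NADH (at complex I) and succinate (at complex II) through complex III to complex IV, which reduces oxygen, and the proton gradient built on the way drives the ATP synthase. Most subunits are encoded in the nucleus and a few in the mitochondrial genome, so the complexes are put together from both. In worms, mutants and knockdowns of several of these genes are classical lifespan models, among them long-lived isp-1 and nuo-6 mutants and short-lived, oxidant-sensitive mev-1 mutants. Genes on the X chromosome are known to be largely silent in much of the worm germline, and several respiratory chain subunits there are encoded by an X-linked and an autosomal copy.

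Values are in CPM, a gene's reads divided by all reads of its library and scaled alike in every library. The libraries held 17760706 to 33888940 reads each, so the limit that a count of 0 allows, 3 reads, lay at 0.0885 to 0.169 CPM. These floors cover counting error only. The values were deposited in 2 tables, one with controls 1 to 4, 2 h libraries 1 and 2 and the 48 h libraries, and one with 2 h libraries 3 and 4 and the 4 h libraries, and comparisons were made within a table. Controls 1 and 3 and 48 h library 1 stood apart: ribosomal RNA took 53.3%, 51.7% and 44.9% of their reads, against 32.2% to 36.2% in the other 7 libraries of that table. In the other table it took 37.7% to 44.6% of reads in the 4 h libraries and 38.0% and 39.0% in the 2 h libraries. The germline label fitted its markers: all 10 germline markers averaged at least 10 CPM, with a summed level of 1493 to 3223 CPM. The 7 sperm markers summed to between 0.527 and 2.24 CPM, and 6 of them were below the floor in all 16 libraries. Markers of other tissues were not at 0. Summed levels were 7.79 to 34.3 CPM for 9 intestine markers, 44.5 to 123 CPM for 10 muscle markers and 26.4 to 60.5 CPM for 8 neuron markers. They were 15.4 to 38.8 CPM for 7 cuticle and epidermis markers and 153 to 335 CPM for 7 somatic gonad markers. Much of several sums came from 1 gene. Means were 237 CPM for let-502 (somatic gonad), 35.8 for unc-54 (muscle), 30.7 for snb-1 (neurons) and 23.2 for nhr-23 (cuticle and epidermis). Of the 7 cuticle and epidermis markers, 3 were below the floor in all 16 libraries. Which cells gave these reads was not tested.

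Most of the respiratory chain genes ranked high among the messages of the tumor. To compare genes, levels were divided by exon length, which gives CPM per kilobase of exon, and ranked among 19944 protein-coding genes over the controls. The highest was atp-2, the catalytic beta subunit of the ATP synthase, at 669.6 ± 244 CPM per kilobase (SD, n = 4), which is rank 117. Behind it stood 3 further ATP synthase genes: asg-1 (a membrane subunit) at 338 ± 18, atp-5 (a stalk subunit) at 317 ± 49.2 and asb-1 (stalk subunit b) at 314 ± 33.1 CPM per kilobase. These 3 did not differ beyond their spread. In complex III the core protein ucr-2.3 led at 209 ± 46.8 CPM per kilobase, next to cyc-1 (cytochrome c1) at 205 ± 40.2 and isp-1 (the Rieske iron-sulfur subunit) at 187 ± 40.6, again within their spread. In complex I the accessory subunit nuo-6 led at 169.9 ± 12.0 CPM per kilobase and nuo-1, the flavoprotein subunit, was at 134 ± 32.0. In complex II the flavoprotein sdha-2 led at 117 ± 33.3 CPM per kilobase, with the iron-sulfur subunit sdhb-1 at 77.6 ± 23.6 and the membrane anchors sdhd-1 at 91.2 ± 16.4 and mev-1 at 62.8 ± 15.7. Other complex I genes lay in the range of complex II, such as nuo-5 at 117 ± 49.9 and nduf-6 at 85.9 ± 6.05. The 4 assembly genes of complex IV were the lowest autosomal members, between cox-15 (heme A synthesis) at 47.7 ± 9.45 CPM per kilobase, rank 1380, and cox-10 (heme farnesyltransferase) at 19.2 ± 5.56, rank 3475. In the plot of levels by complex, the ATP synthase and complex III stand highest and 5 genes fall far below all others.

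**Figure D1:**
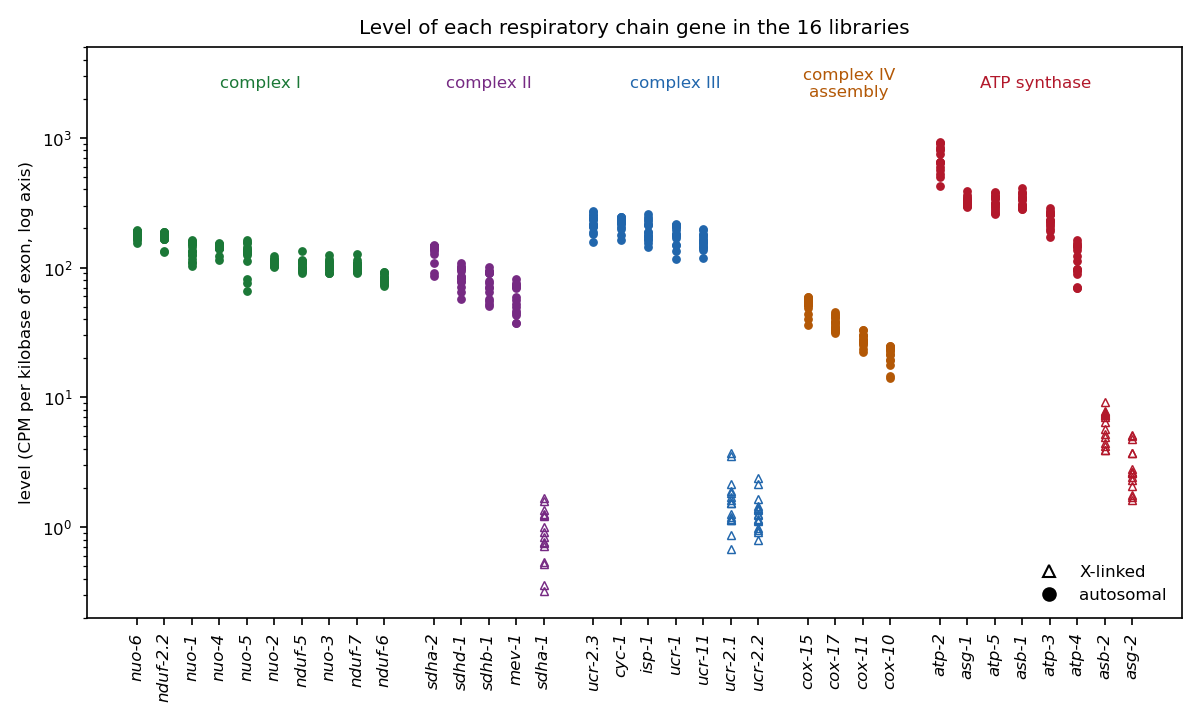
Level of each of the 34 genes in CPM per kilobase of exon (log axis), grouped by complex and ordered by control level within it, with 1 point per library for 16 libraries. Filled circles are autosomal genes and open triangles are X-linked genes; every X-linked gene lies below every autosomal one.

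Those 5 genes were the X-linked members: asb-2, asg-2, sdha-1, ucr-2.1 and ucr-2.2. Their means over 16 libraries were 1.48 to 7.38 CPM, while the 29 autosomal members had means of 12.0 to 1344 CPM. Thus 0 of 5 X-linked and 29 of 29 autosomal members averaged at least 10 CPM. Among all protein-coding genes with a position, 25 of 2724 X-linked genes (0.918%) and 4806 of 17208 autosomal genes (27.9%) did so. The X-linked members were thus low where nearly all X-linked genes were low. In bulk samples, fewer cells that use a gene and less RNA per cell cannot be told apart, and which cells gave the X-linked reads was not tested.

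Each of the 5 had an autosomal copy among the members. Stalk subunit b is encoded by asb-1 on chromosome III (WBcel235, 4594543 to 4595821) and asb-2 on the X chromosome (4469766 to 4471476). Per length, asb-1 exceeded asb-2 by 30.6-fold to 84.4-fold in the 16 libraries, with a median of 53.4-fold. Membrane subunit g is encoded by asg-1 on chromosome I (8692946 to 8693468) and asg-2 on the X chromosome (6841258 to 6842121), and the ratio of asg-1 to asg-2 ran from 61.7 to 207 with a median of 122. For the flavoprotein of complex II, sdha-2 on chromosome I (10683270 to 10685587) exceeded sdha-1 on the X chromosome (8542757 to 8546021) by 86.2-fold to 401-fold, with a median of 134-fold. For the complex III core protein, ucr-2.3 on chromosome III (879860 to 881458) exceeded X-linked ucr-2.1 (12018429 to 12021206) by a median of 154-fold (range 69.1 to 308) and X-linked ucr-2.2 (15173904 to 15178145) by a median of 178-fold (range 107 to 257). In every library the autosomal copy was the higher of each pair. Paralogs can share stretches of sequence, and the sources used here do not say how reads that match both were counted, so the low values of the X-linked copies are uncertain.

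No test was run on these ratios, and the groups took no common order in them. The asb-1 to asb-2 ratio was 39.3 to 55.1 in controls, 54.4 and 58.2 at 2 h and 52.1 to 84.4 at 48 h in the first table, and 30.6 to 75.6 at 4 h against 62.5 and 71.4 at 2 h in the second. At 4 h asb-2 itself stood at 10.9, 4.62, 4.60 and 9.05 CPM, so 4 h libraries 1 and 4 were high. The sdha-2 to sdha-1 ratio was 108 to 120.1 in controls, 94.3 and 151 at 2 h and 86.2 to 210.2 at 48 h, and 147 to 401 at 4 h against 189 and 203 at 2 h in the second table. For both pairs, as for the 2 pairs that follow, the 4 h range spanned the 2 h values. The ucr-2.3 to ucr-2.2 ratio was 107 to 174 in controls, 109.8 and 146 at 2 h and 184 to 235.4 at 48 h, so in that table the 48 h libraries were highest; in the second table it was 150 to 257 at 4 h against 183 and 235.3 at 2 h. The asg-1 to asg-2 ratio was 68.7 to 124 in controls, 127.1 and 187 at 2 h and 85.5 to 123 at 48 h, so in that table the 2 h libraries were highest, while in the second it was 61.7 to 207 at 4 h against 190.3 and 196 at 2 h.

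A further X-linked subunit outside the naming rule, gas-1, encodes the 49 kDa subunit of complex I, and nduf-2.2 on chromosome III is its autosomal copy. Their ratio per length was 7.18 to 148 in the 16 libraries, with a median of 28.5. The level of nduf-2.2 ranged from 197 to 279 CPM, and that of gas-1 from 2.08 to 40.1 CPM. At 48 h and in controls gas-1 stood at 2.08, 3.53, 5.94 and 3.47 CPM (48 h) and 7.51, 24.0, 6.11 and 17.5 CPM (controls), and all 48 h values lay below all control values. The log2 fold change at 48 h against control was -1.50 (SE 0.39; limma, adjusted p = 0.0359), on the log2(CPM + 1) scale, and -2.24 without controls 1 and 3 (adjusted p = 0.00337). The call was lost without a low-value filter and when control 4, either 2 h library or 48 h library 1, 2 or 4 was left out. At 2 h in the first table gas-1 stood at 15.1 and 18.3 CPM. At 48 h against 2 h its log2 fold change was -1.95 and did not pass (limma, adjusted p = 0.0594). It passed there after centring (limma, adjusted p = 0.0120), with the length trend removed (adjusted p = 0.00491) and without controls 1 and 3 (adjusted p = 0.00679). Its copy nduf-2.2 was at 272, 261, 278 and 279 CPM at 48 h and 201, 248, 197 and 263 CPM in controls, a log2 fold change of 0.27 (95% interval -0.02 to 0.56; limma, adjusted p = 0.2). In the second table gas-1 stood at 40.1, 11.8, 13.4 and 18.9 CPM at 4 h and 3.34 and 8.23 CPM at 2 h, a log2 fold change of 1.64 that did not pass (limma, adjusted p = 0.129). It passed with the trend with gene length removed (1.72, limma adjusted p = 0.0494), with the replicate block and without 4 h library 3. The block there compares only 4 h libraries 3 and 4 with 2 h libraries 3 and 4.

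Within the first table the controls differed among themselves. In controls 1 and 3 the catalytic subunit gene atp-2 stood at 822 and 957 CPM, while controls 2 and 4 held 1629 and 1758 CPM of it. The largest core subunit of complex I, nuo-5, stood at 162 and 201 CPM in controls 1 and 3 and 384 and 397 CPM in controls 2 and 4. The short gene nuo-6 ran the other way, at 119 and 114 CPM in controls 1 and 3 and 101 and 108 CPM in controls 2 and 4. Controls 1 and 3 were thus low for these long genes and not for this short one, but atp-4, with 542 exon bases, was also low there, at 37.9 and 61.1 CPM, while controls 2 and 4 held 78.3 and 81.3 CPM of it.

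Across the 34 members, the difference in mean log2(CPM + 1) between controls 1 and 3 and controls 2 and 4 had a Pearson correlation of -0.73 with log2 exon length. The points share the same 4 libraries, and genes are not independent replicates, so this is a description. Over 4852 protein-coding genes that averaged at least 10 CPM in that table the same correlation was -0.79. The median difference was -0.12 for the 17 shorter members and -0.48 for the 17 longer ones, against -0.56 over those 4852 genes. The respiratory chain genes have a median exon length of 1066 bases, below the 1590 bases of those genes. The controls with the highest ribosomal RNA share were the same libraries, and the part of RNA quality or ribosomal RNA in these differences was not tested.

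**Figure D2:**
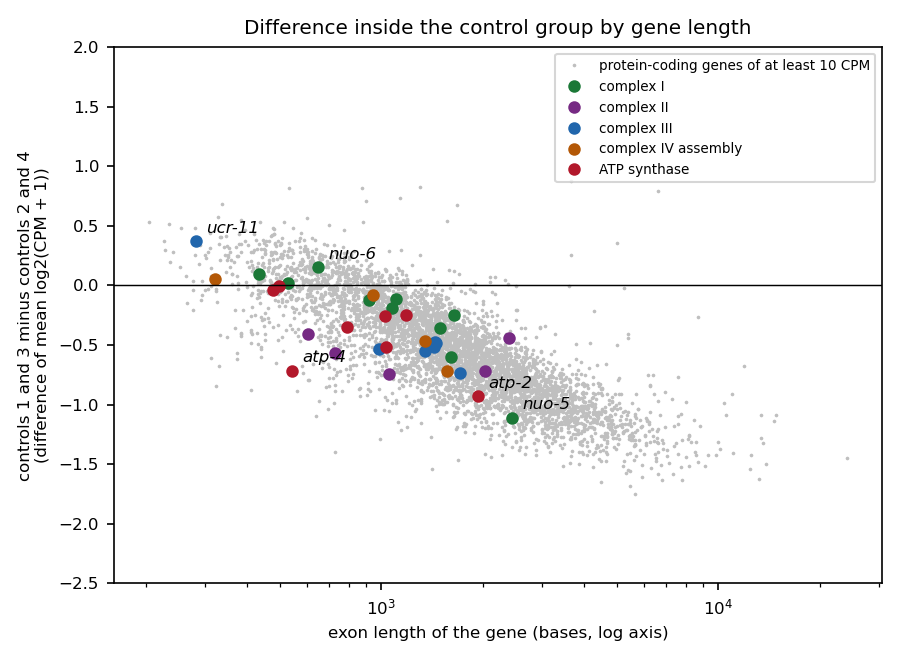
Difference in mean log2(CPM + 1) between controls 1 and 3 and controls 2 and 4 (vertical axis) against exon length in bases (horizontal log axis), for protein-coding genes of at least 10 CPM (grey) and the 34 respiratory chain genes (coloured by complex). Points fall with length: nuo-5 and atp-2 lie far below 0, and ucr-11 and nuo-6 lie above it.

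The 29 autosomal members had a median coefficient of variation of 8.79% in the 48 h libraries and 18% in the controls. It was 4.18% in 48 h libraries 2 to 4 and 4.21% in controls 2 and 4. At 2 h it was 4.54% in the first table and 1.96% in the second, and at 4 h it was 6.29%. The heat map by library shows controls 1 and 3 and 48 h library 1 as pale or blue columns over the longer genes.

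**Figure D3:**
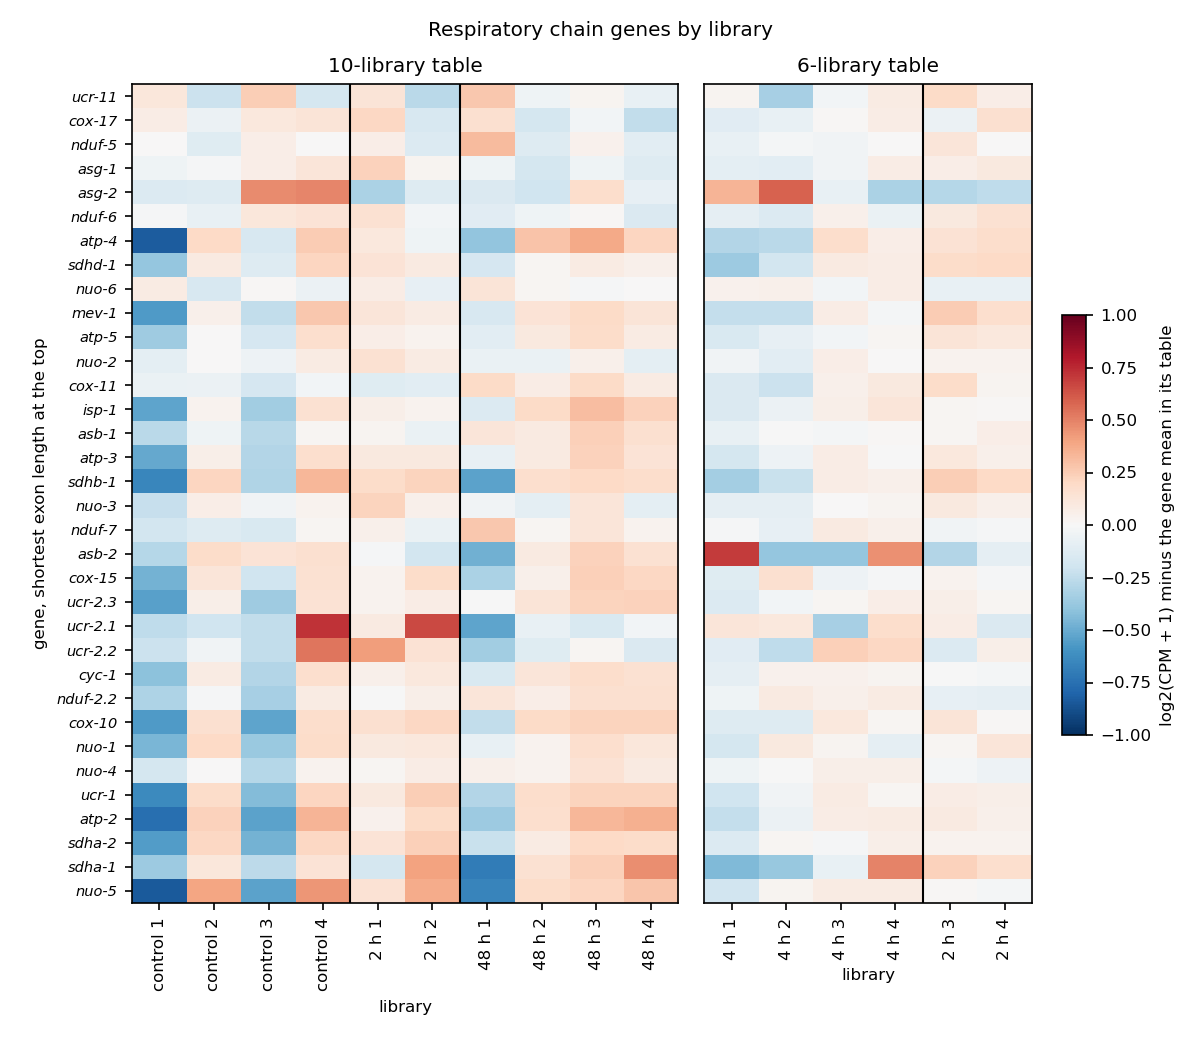
Log2(CPM + 1) of each gene minus its mean in its table (red above, blue below), with 1 column per library and genes ordered from short (top) to long (bottom). In the 10-library table controls 1 and 3 and 48 h library 1 are blue toward the bottom; colours are comparable only within a table.

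After 2 h of auxin no respiratory chain gene passed the test against control. With limma, 0 of 34 members had an adjusted p under 0.05, and 0 of 34 had an unadjusted p under 0.05; edgeR and DESeq2 also called 0. Over all 7684 genes tested limma called 0 (0%), and 429 had an unadjusted p under 0.05. For atp-2 the 2 h libraries stood at 1435 and 1591 CPM and the controls at 822, 1629, 957 and 1758 CPM, so both 2 h values lay inside the control range. The Rieske subunit gene isp-1 stood at 213 and 208 CPM at 2 h and 141, 209, 160.0 and 226 CPM in controls, which also overlapped. No member had 2 h and control values that did not overlap, while 18.8% of all genes tested had such values.

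The member with the smallest p in each complex was as follows; larger changes occurred at larger p, such as 0.39 for nuo-5. In the ATP synthase it was X-linked asg-2, at 1.03 and 1.32 CPM at 2 h and 1.31, 1.32, 2.51 and 2.54 CPM in controls (log2 fold change -0.39). In complex IV assembly it was cox-10, at 37.4 and 38.6 CPM at 2 h and 22.2, 37.5, 22.9 and 37.8 CPM in controls (0.37), and in complex II sdha-2, at 283 and 304 CPM against 175, 297, 185 and 297 CPM (0.34). In complex III it was ucr-2.1 (0.37) and in complex I the accessory subunit nuo-3 (0.18). All 5 had a limma adjusted p of 0.520. In the annotation nuo-3 shares 72.6% of its exon bases with another gene on the same strand, WBGene00303007, so its reads are uncertain.

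The median log2 fold change at 2 h was 0.17 over the 34 members and 0.24 over all genes tested, with 28 members above 0 as deposited and 7 above 0 once each library was centred on its median log ratio. Centring moved the median of all genes to -0.06 and that of the members to -0.13. In this fit the 95% interval of a member's log2 fold change reached a median of 0.45 to either side. Without controls 1 and 3 and 48 h library 1 the log2 fold changes of the autosomal members ran from -0.19 to 0.12, with 95% intervals lying within -0.38 to 0.36.

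After 48 h of auxin, when 772 of 7684 genes (10%) passed the test against control, 0 of 34 respiratory chain genes did. Of the members, 2 had an unadjusted p under 0.05, as did 2208 of all genes; edgeR called 0 members and DESeq2 called 1. The 2 were asb-1 and cox-11, which delivers copper to complex IV. For asb-1 the 48 h libraries stood at 384, 377, 419 and 395 CPM and the controls at 294, 344, 292 and 358 CPM. All 4 values at 48 h lay above all controls, and the log2 fold change was 0.29 (95% interval 0.02 to 0.57; limma, adjusted p = 0.151). For cox-11 the values were 31.1, 28.7, 31.1 and 28.8 CPM at 48 h and 25.9, 26.0, 24.0 and 26.7 CPM in controls, a log2 fold change of 0.22 (95% interval 0.01 to 0.42; limma, adjusted p = 0.153). The accessory subunit gene nuo-4 was the third gene without overlap, at 236, 233, 252 and 243 CPM at 48 h and 201, 228, 187 and 233 CPM in controls. After centring the log2 fold changes were 0.01 for asb-1, -0.07 for cox-11 and -0.10 for nuo-4. With each library's trend with gene length removed they were 0.12 (95% interval 0.02 to 0.21, limma adjusted p = 0.0972), 0.05 and -0.10 in the same order. The direction was thus turned by both scalings for nuo-4 and by centring for cox-11. For asb-1 it was kept, though near 0 after centring. In all, 3 members lay wholly above and 0 wholly below the controls, that is 3 of 34, against 18.5% of all genes tested in either direction.

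The genes with classical lifespan mutants overlapped between 48 h and control. The anchor gene mev-1 stood at 43.4, 53.5, 55.5 and 53.2 CPM at 48 h and 32.5, 50.4, 40.9 and 58.9 CPM in controls, and it had the smallest p of complex II (log2 fold change 0.19; limma, adjusted p = 0.441). For isp-1 the log2 fold change was 0.32 (95% interval -0.07 to 0.71), for nuo-6 it was 0.07 (-0.18 to 0.31), for nuo-1 it was 0.17 (-0.21 to 0.55) and for cyc-1 it was 0.19 (-0.17 to 0.55). The core protein gene ucr-2.3 had the smallest p of complex III, at 311, 342, 365 and 366 CPM at 48 h and 214, 325, 244 and 345 CPM in controls (log2 fold change 0.32; limma, adjusted p = 0.229). For atp-2 the log2 fold change was 0.31 with an interval from -0.29 to 0.90, and for the stalk subunit atp-3 it was 0.24 (-0.12 to 0.61).

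The median log2 fold change at 48 h was 0.15 over the members and 0.24 over all genes. As deposited 26 of 34 members were above 0, and after centring 5 were, with a member median of -0.14 and an all-gene median of -0.05. The sign of these small differences thus rests on the scaling. Without controls 1 and 3 and 48 h library 1 the autosomal members ran from -0.20 to 0.18, with 95% intervals lying within -0.44 to 0.38, while 1825 of 7612 genes passed the test in that fit and 0 members did. Removing each library's trend with gene length called 3 members, all lower at 48 h: nuo-2, a core subunit of complex I, at -0.18 (limma, adjusted p = 0.0169), asg-1 at -0.17 (adjusted p = 0.0435) and nuo-3 at -0.18 (adjusted p = 0.0497). In that fit 1482 of all 7684 genes passed, 607 higher and 875 lower, so the members' share was below that of all genes.

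**Figure D4:**
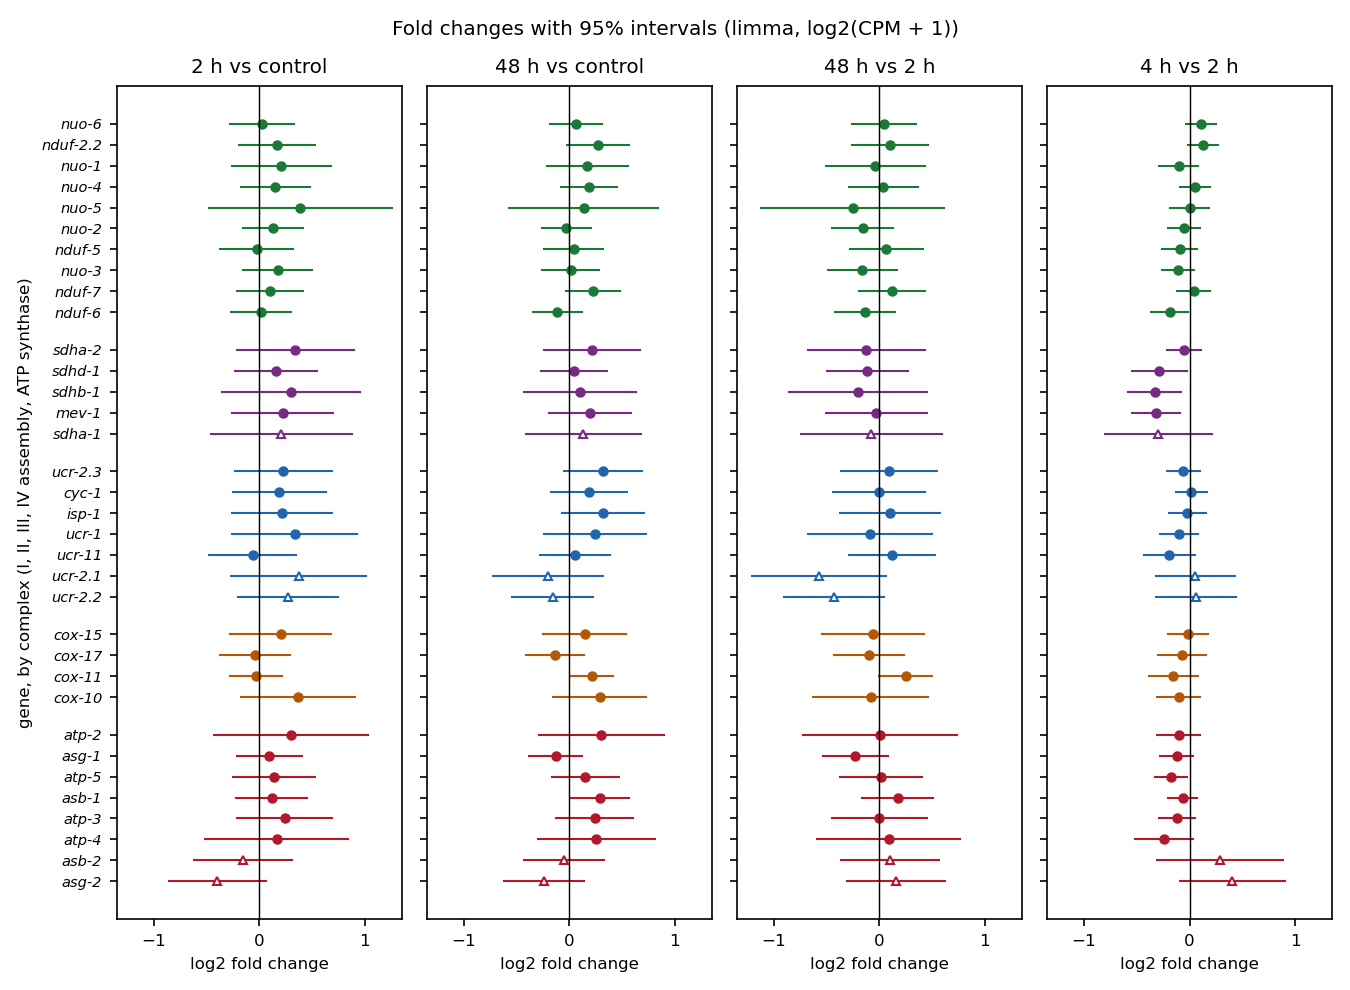
Log2 fold change of each of the 34 genes with its 95% interval (limma on log2(CPM + 1)) in the 4 comparisons, with genes grouped by complex, filled circles for autosomal and open triangles for X-linked genes. At 4 h against 2 h the median interval is the narrowest for the autosomal genes and the widest for the X-linked genes. The intervals of mev-1, sdhb-1, sdhd-1, atp-5 and nduf-6 lie below 0 there.

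Between 48 h and 2 h, within the first table, 0 of 34 members passed with limma, edgeR or DESeq2, and limma called 219 of all 7684 genes (2.85%). That count was 47 without 2 h library 1, 39 without 2 h library 2, and 126 to 140 without 48 h library 2, 3 or 4. Only 1 member, cox-11, had an unadjusted p under 0.05, as had 914 of all genes. It stood at 31.1, 28.7, 31.1 and 28.8 CPM at 48 h and 24.9 and 25.1 CPM at 2 h (log2 fold change 0.25; limma, adjusted p = 0.418). The membrane subunit gene asg-1 lay lower at 48 h, at 153, 139, 153 and 144 CPM, against 185 and 160.3 CPM at 2 h (log2 fold change -0.23; limma, adjusted p = 0.689). It passed without controls 1 and 3 and 48 h library 1 (-0.25, adjusted p = 0.0396), as did the stalk coupling factor atp-4 (0.26, adjusted p = 0.0253). In that fit 1561 of all 7612 genes passed, against 2 of 34 members, so the members' share was below that of all genes.

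In the other complexes the smallest p belonged to nuo-2 (log2 fold change -0.16), sdhb-1 (-0.20) and ucr-2.2 (-0.43). Values did not overlap for 3 members that were higher and 5 that were lower at 48 h, which is 8 of 34, near the 27.3% of all genes tested. The members' median log2 fold change was -0.02, as was that of all genes.

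The narrowest comparison was 4 h against 2 h in the second table, where a member's 95% interval reached a median of 0.18 to either side of its log2 fold change. Over the 5 X-linked members alone that median was 0.50. With limma 0 of 34 members passed, against 28 of 7301 genes (0.384%). At an unadjusted p under 0.05 there were 5 members (mev-1, sdhb-1, sdhd-1, atp-5 and nduf-6) and 1133 of all genes, edgeR called 0 members and DESeq2 called 2. Of the 34, 2 lay wholly higher and 8 wholly lower at 4 h, that is 10 members, a share near the 30.2% of all genes tested. The members' median log2 fold change was -0.08 and that of all genes -0.07, and centring moved both to near 0 (-0.00 and 0.01).

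Complex II, which also belongs to the citric acid cycle, had its 5 log2 fold changes below 0 at 4 h against 2 h, with a median of -0.30. That sign was common: 5101 of all 7301 genes were below 0 and 2200 above, as were 24 and 10 of the 34 members. The median is the value of X-linked sdha-1, a low gene at 0.780 to 2.40 CPM at 4 h and 1.83 and 1.71 CPM at 2 h. The iron-sulfur subunit gene sdhb-1 (chromosome II, 9350714 to 9352731) stood at 55.2, 59.9, 74.0 and 72.9 CPM at 4 h and 83.4 and 80.7 CPM at 2 h. The anchor gene mev-1 (chromosome III, 10334277 to 10335168) stood at 27.0, 27.0, 33.8 and 31.6 CPM at 4 h and 38.4 and 36.2 CPM at 2 h. The second anchor gene, sdhd-1 (chromosome II, 11049144 to 11049913), stood at 34.3, 39.0, 47.3 and 46.9 CPM at 4 h and 50.5 and 51.3 CPM at 2 h. For these 3 genes every 4 h library lay below both 2 h libraries.

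The log2 fold changes were -0.33 for sdhb-1 (95% interval -0.58 to -0.08; limma, adjusted p = 0.220), -0.32 for mev-1 (-0.54 to -0.09; adjusted p = 0.207) and -0.29 for sdhd-1 (-0.55 to -0.03; adjusted p = 0.287), so none passed over all genes. The flavoprotein gene sdha-2 was at 261, 291, 286 and 299.9 CPM at 4 h and 294 and 295 CPM at 2 h, which overlapped (log2 fold change -0.05). The lowest values of the 3 genes were in 4 h libraries 1 and 2, which also had the most ribosomal RNA of that table (44.6% and 41.5%); its part in the result was not tested. After centring sdha-2 stood above 0 (0.03), and the log2 fold changes were -0.25 for sdhb-1, -0.23 for mev-1 and -0.20 for sdhd-1, with limma adjusted p = 0.0886, 0.0958 and 0.181. With the replicate block they were -0.16, -0.18 and -0.11 for sdhb-1, mev-1 and sdhd-1, with limma adjusted p = 0.0399, 0.0831 and 0.261. Only libraries 3 and 4 of each time bear on those block values, as no 2 h library of that table has number 1 or 2. With so few libraries the spread in that fit is poorly known. DESeq2 called sdhb-1 (-0.25, adjusted p = 0.0327), and without 4 h replicate 3 limma called mev-1 (-0.38, adjusted p = 0.0474).

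Outside complex II, the core subunit gene nduf-2.2 stood at 254, 278, 271 and 277 CPM at 4 h and 248 and 247 CPM at 2 h. All 4 h libraries lay above both 2 h libraries, and the log2 fold change was 0.13 (95% interval -0.02 to 0.27; limma, adjusted p = 0.369). It passed after centring (0.21, adjusted p = 0.0463) and after removing the trend with length (0.20, adjusted p = 0.0329). In those fits 178 and 273 of all 7301 genes passed. The accessory subunit gene nuo-6 was at 123, 124, 117 and 126 CPM at 4 h and 113 and 113 CPM at 2 h (log2 fold change 0.11). The stalk subunit gene atp-5 was lower, at 205, 215, 224 and 231 CPM at 4 h and 248 and 245 CPM at 2 h (log2 fold change -0.17; limma, adjusted p = 0.274). The remaining members with the smallest p in their complex were nduf-6 (-0.19), ucr-11 (-0.19) and cox-11 (-0.16). For isp-1 the log2 fold change was -0.02 (95% interval -0.20 to 0.15), for cyc-1 it was 0.02 (-0.13 to 0.16), for nuo-1 it was -0.10 (-0.29 to 0.08), for atp-2 it was -0.10 (-0.31 to 0.10) and for atp-3 it was -0.12 (-0.29 to 0.05).

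The naming rule holds no structural subunit of complex IV, because the tables list those genes under older names. By present symbols, 29 further genes of complexes I and IV and the ATP synthase fell outside the rule, among them cox-5B (named cco-1 in the tables) and cox-5A (cco-2). On log2(CPM + 1) none of the 29 was called by limma in any of the 4 comparisons; at an unadjusted p under 0.05 there were 0, 2, 1 and 3 of them at 2 h against control, 48 h against control, 48 h against 2 h and 4 h against 2 h. At 48 h against control, removing each library's trend with gene length called 6 of the 29, of which 1 was higher and 5 lower. That share was near the 1482 of all 7684 genes that passed in the same fit. All 6 are named as subunits of complex I, as are most of the 29. At 48 h against control, centring called 1 of the 6, nduf-9 (-0.24, limma, adjusted p = 0.0360), and DESeq2 called 2, nduf-9 and ndub-2. Over all 7684 genes centring called 827 there and DESeq2 called 1255. Without controls 1 and 3 and 48 h library 1 limma called 3 of the 29 at 48 h against control (2 higher, 1 lower) and 4 at 48 h against 2 h, all lower. In those comparisons 1825 and 1561 of all 7612 genes passed in that fit, so both shares were below that of all genes. The 7 structural subunits of complex IV (cox-4, cox-5A, cox-5B, cox-6A, cox-6B, cox-6C and cox-7C) summed to 768, 807, 868 and 859 CPM at 4 h and 901 and 898 CPM at 2 h in the second table. In the first table they summed to 811, 998, 922 and 1063 CPM in controls, 1108 and 998 CPM at 2 h and 942, 1023, 1126 and 1031 CPM at 48 h, and these ranges overlapped.

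Per length in controls, cox-5A stood at 312 ± 53.0 and cox-5B at 189 ± 16.3 CPM per kilobase (SD, n = 4). The gene cox-6A stood at 262 ± 8.31, cox-6B at 233 ± 12.8 and cox-6C at 68.3 ± 11.3 CPM per kilobase. These structural subunits were above the 19.2 to 47.7 CPM per kilobase of the 4 assembly genes. The lifespan gene cox-5B stood at 123, 127.4, 144 and 143 CPM at 4 h and 147 and 141.9 CPM at 2 h, which overlapped.

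Around the chain, 8 lists of mitochondrial genes were read out of the same fits. On log2(CPM + 1) the 12 mitochondrially encoded subunits had 0 calls by limma in the 4 comparisons, with median log2 fold changes of -0.08 at 2 h and -0.22 at 48 h against control, -0.09 at 48 h against 2 h and 0.11 at 4 h against 2 h. The ubiquinone synthesis genes (8 tested), the assembly factors (6), the genes of mitochondrial DNA upkeep and expression (7) and those of the mitochondrial stress response (7) also had 0 calls by limma in all 4 on that scale. Other settings called some of them. With the trend with gene length removed, ctb-1 (cytochrome b, -0.46; limma, adjusted p = 0.0451), polg-1 (-0.33; adjusted p = 0.0229), clpp-1 (-0.26; adjusted p = 0.0436) and lonp-1 (-0.15; adjusted p = 0.0257) were called lower at 48 h against control. With that trend removed 1482 of all 7684 genes passed. Without controls 1 and 3 and 48 h library 1, limma called 1 of 12 mitochondrially encoded and 3 of 7 upkeep and expression genes at 48 h against control, all lower. There 1825 of all 7612 genes passed. In the same fit it called 3 of 12 mitochondrially encoded, 4 of 7 stress response, 1 of 7 upkeep, 1 of 8 ubiquinone and 1 of 6 assembly genes at 48 h against 2 h, where 1561 of all 7612 genes passed. Of the other subunit genes of these complexes under names outside the rule, 1 of 5 tested was called, gas-1 at 48 h against control, as given above. In the citric acid cycle 2 of 16 tested genes were called at 48 h against control, 1 up and 1 down, a share near the 10% of all genes. X-linked suca-1, a subunit of succinyl-CoA synthetase, fell to 9.57, 8.66, 19.5 and 24.2 CPM at 48 h, against 35.7, 60.7, 35.7 and 70.1 CPM in controls (log2 fold change -1.70, SE 0.34; limma, adjusted p = 0.0133). The other, idhg-2, was close to the low-value filter, at 1.46, 1.27, 2.07 and 2.47 CPM at 48 h and 0.604, 0.289, 0.0917 and 0.446 CPM in controls (1.05; limma, adjusted p = 0.00610). It passed that filter only through its 48 h libraries. Its being tested, here and at 48 h against 2 h, thus depended on the group where it was high.

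Among the ADP/ATP carriers and import genes, 1 of 12 tested was called at 48 h against control, also near the 10% of all genes, and 1 at 4 h against 2 h. The carrier gene ant-1.3 fell to 0.619, 0.873, 0.668 and 0.385 CPM at 48 h, against 3.42, 4.30, 3.24 and 4.09 CPM in controls (log2 fold change -1.54, SE 0.12; limma, adjusted p = 0.000113). It passed the low-value filter only through its control and 2 h libraries. Its being tested, here and at 48 h against 2 h, thus depended on the groups where it was high. The import gene timm-17B.2 stood at 97.7, 81.4, 80.5 and 80.8 CPM at 4 h, against 47.5 and 50.9 CPM at 2 h (log2 fold change 0.77, SE 0.09; limma, adjusted p = 0.00423). It varied widely within groups of the first table, at 92.7, 67.9, 78.2 and 50.8 CPM in controls and 71.1 and 46.5 CPM at 2 h. Between 48 h and 2 h the limma calls in these lists were suca-1, idhg-2 and ant-1.3, with log2 fold changes of -2.12, 1.09 and -1.63 (limma, adjusted p = 0.0240, 0.0217 and 0.000662). When 2 h library 1 or 2 was left out only ant-1.3 of these 3 was called, leaving out any 1 of the 48 h libraries lost either suca-1 or idhg-2, and the call of timm-17B.2 was lost without 2 h library 3. At 2 h against control none of the 8 lists held a call by limma.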

How the data were processed

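Total RNA of dissected germlines was depleted of ribosomal RNA before library preparation, per the labels. The authors deposited a signal per gene that they name CPM, in 2 tables. The submitters' processing notes name STAR 2.0.4b, featureCounts 1.4.5, Subread, limma and edgeR and give no settings. The sources used here name no build, annotation or strand setting for the counting. Keeping 1 line per gene, 46536 genes remained, and 100% of nonzero deposited signal values were whole multiples of the value of 1 read (tolerance 0.1 read), so whole reads were recovered for the count tests.

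The 34 genes were found by name, and all 34 had a length and position in the Ensembl annotation of WBcel235, in which 46363 gene IDs were found. Each table was fitted with limma 3.58.1 (R 4.3.3, moderated test with trend). The 2-sided test used log2(CPM + 1), and p-values were adjusted by Benjamini-Hochberg over all genes of at least 1 CPM in at least 2 libraries, with a threshold of 0.05. All 34 genes passed that filter in both tables. Fold changes on this scale understate the change of low genes. edgeR 4.0.16 (quasi-likelihood test) and DESeq2 1.42.0 were run on the recovered reads as alternatives, beside other pseudocounts, filters and scalings, a replicate block and fits without single libraries.

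The labels do not say whether libraries came from separate cultures, so a p-value here covers only the spread among libraries, which may be technical. Named were, per comparison and complex, called genes or else the gene with the smallest p; genes with classical lifespan mutants; paralog sets; the highest gene per length of each complex; and from each related list the called gene with the largest change, with gas-1. Outside this rule nuo-4, nuo-5, sdhd-1, atp-4, idhg-2, nduf-9, ndub-2, ctb-1, polg-1, clpp-1 and lonp-1 were named after their values were seen. The genes and lists were chosen with earlier results of these data known.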

Additional observations from a re-analysis of the deposited data

Results flagged for a closer look

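In groups of 4 libraries, 9 of 102 gene and group combinations had 1 library far from the other 3. Chance flags about 1 in 20 groups. Of the 9, 5 were low values in 48 h library 1, one of the libraries with a high share of ribosomal RNA: nuo-5 at 184.5 CPM, with the others at 331.3 to 353.7 CPM; sdhb-1 at 57.9 CPM, with the others at 95.3 to 97.3 CPM; cyc-1 at 286.2 CPM, with the others at 345.8 to 359.5 CPM; ucr-1, a core protein of complex III, at 253.7 CPM, with the others at 352.2 to 363.1 CPM; and cox-10 at 28.0 CPM, with the others at 38.3 to 39.2 CPM. In 4 h library 1, cyc-1 was low at 300.2 CPM, with the others at 325.1 to 329.1 CPM. X-linked genes gave the other 3. For ucr-2.1, 4 h library 3 was low at 0.975 CPM, with the others at 1.67 to 1.80 CPM, and control 4 was high at 5.29 CPM, with the others at 2.18 to 2.31 CPM. For asb-2, control 1 was low at 6.14 CPM, with the others at 8.56 to 8.92 CPM.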

How the results depend on the processing

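At 2 h against control 0 of 34 members were called under every alternative run. At 48 h against control the count moved to 3 with each library's length trend removed (all lower, where 1482 of all 7684 genes passed), 1 with DESeq2 (sdhd-1, lower), 1 after centring without controls 1 and 3 and 48 h library 1 (nuo-5, lower) and 1 with the length trend removed without controls 1 and 3 (asg-1, lower). Over all genes, 1255 of 7684 passed with DESeq2, 1851 of 7612 after that centring and 1206 of 7650 in the last of these fits. At 48 h against 2 h it moved to 2 without controls 1 and 3 and 48 h library 1, 1 after centring without those libraries (asg-1) and 2 with the length trend removed without controls 1 and 3 (asg-1 and cox-11). In these fits 1561 of 7612, 1685 of 7612 and 816 of 7650 genes passed. At 4 h against 2 h it moved to 1 after centring, 1 with the length trend removed, 2 with DESeq2 (sdhb-1 and nduf-2.2) and 3 with the replicate block (sdhb-1, nduf-2.2 and atp-5). In these fits 178, 273, 334 and 644 of all 7301 genes passed. At 4 h against 2 h the block compares only libraries 3 and 4 of each time, so its calls rest on few libraries. Leaving out 1 library at a time gave 0 to 1 members there and 0 in the other comparisons. The cause was not tested. With the replicate block the other 3 comparisons kept 0 member calls, and calls over all genes moved from 772 to 1083, from 219 to 233 and from 28 to 644, with 0 at 2 h; the numbers were not taken to pair the libraries, since not every same-numbered pair deviated together: the deviations of same-numbered libraries had correlations of 0.79, 0.67, -0.39 and 0.68 for 48 h and control, 0.60 and 0.71 for 2 h and control, 0.64 and 0.50 for 48 h and 2 h and 0.08 and -0.04 for 4 h and 2 h. Some differently numbered libraries deviated together as well, such as control 3 with 48 h library 1 (0.77) and control 4 with 2 h library 2 (0.70). Others were opposed, such as control 1 with 48 h library 2 (-0.63). Alternatives that join centring or the length trend with left-out libraries were chosen after seeing the data. Over all genes, calls at 48 h against control ran from 342 to 1050 when 1 library was left out, with 376 without control 3 and 342 to 408 without 48 h library 2, 3 or 4. At 48 h against 2 h they ran from 39 to 281, and at 4 h against 2 h from 4 to 237, with 4 and 6 without 2 h library 3 and 4, 10 without 4 h library 4 and 237 without 4 h library 3. DESeq2 called 24 genes at 2 h, 1255 at 48 h against control, 574 at 48 h against 2 h and 334 at 4 h against 2 h, and edgeR called 0, 888, 379 and 233. Without a low-value filter limma called 552, 171 and 9 genes in the last 3 comparisons and 0 in the first, and with a filter of 5 CPM it called 383, 42, 23 and 0. Centring moved the split of calls at 48 h against control from 564 up and 208 down to 281 up and 546 down. The X-linked members, at 0.780 to 10.9 CPM, rest on the fewest reads.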
